A study of Mus musculus with 9 samples.

Results

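Hair keratins of types I and II, the filament proteins of the hair shaft, were followed in whole mouse skin through the 8 genes Krt31, Krt33a, Krt33b, Krt34, Krt35 and Krt36 (type I, 6 genes) and Krt81 and Krt86 (type II, 2 genes). They were chosen by name, each with 1 probe set that names that gene alone, and they are 8 of the 12393 genes measured. They are not the whole family. Krt32, Krt82, Krt83 and Krt84 were measured in the same way and are given below as other hair shaft keratins. RNA pools of skin taken 30 days after birth were hybridised to 9 Affymetrix arrays, 2 each for the transgenic lines L60, L84 and LA and 3 for the controls, LC. All 4 genotypes shared a mixed C57BL/DBA/FVB strain background, and the series title concerns constitutively active Akt, a growth factor signalling kinase, with ectodermal defects and impaired BMP signalling. The labels give neither the construct and promoter of each line nor the number of mice in a pool, so the p-values measure the spread between these pools. The deposited values are scores with mean 0 and SD 1 over the 9 arrays for each probe set. Scores and differences are therefore in SDs of that gene over the arrays, and they hold no expression level and no fold. A higher score was read as more RNA, which the files do not state, and whether a labelled tissue's defining markers were present at all cannot be read from scores.

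The hair shaft is built by cells that leave the matrix at the base of a growing follicle, move upward and fill with keratin before they die. Each filament pairs a type I with a type II keratin, and the cysteines of hair keratins are cross-linked with keratin-associated proteins into a hard fibre. In the human follicle, where the order of onset is known, KRT35 appears among the first in matrix and precortex cells, KRT31 follows in the lower cortex, and KRT33A, KRT33B, KRT34, KRT36, KRT81 and KRT86 belong to the cortex above. In mice, Foxn1, Hoxc13, Lef1 and Msx2 are known as transcription factors of the hair matrix and shaft, and Foxn1 and Hoxc13 are required for normal hair keratin expression.

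In the RefSeq gene order (GRCm38.p6), the type I genes lay side by side on chromosome 11, in the order Krt33a, Krt33b, Krt34, Krt31, Krt32, Krt35 and Krt36, and Krt81 and Krt86 were neighbours on chromosome 15. RefSeq sequence before the transcription start was at hand for 4 of the 8 genes, Krt31, Krt33b, Krt34 and Krt36, all on the minus strand. They are shown as the upstream sequence at hand for members; Krt33b, Krt34 and Krt31 are adjacent, and Krt32 and Krt35 lie between them and Krt36. Each sequence is the 250 bases up to the start, at chr11:100050552-100050801 for Krt31, chr11:100029869-100030118 for Krt33b, chr11:100041555-100041804 for Krt34 and chr11:100105627-100105876 for Krt36. Capitals mark CTTTG, a core of Lef1 sites, and TATAAA, the TATA box, on either strand (CAAAG and TTTATA on the other).
Krt31: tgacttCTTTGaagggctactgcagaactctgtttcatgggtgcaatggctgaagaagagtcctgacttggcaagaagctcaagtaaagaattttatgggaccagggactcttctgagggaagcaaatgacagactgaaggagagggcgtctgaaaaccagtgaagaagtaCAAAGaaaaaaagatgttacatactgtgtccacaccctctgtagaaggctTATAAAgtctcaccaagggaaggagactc
Krt33b: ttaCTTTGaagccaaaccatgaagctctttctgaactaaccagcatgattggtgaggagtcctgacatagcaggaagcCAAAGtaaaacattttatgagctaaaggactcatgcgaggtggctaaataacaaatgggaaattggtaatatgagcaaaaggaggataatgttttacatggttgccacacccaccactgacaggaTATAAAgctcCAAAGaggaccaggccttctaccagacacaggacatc
Krt34: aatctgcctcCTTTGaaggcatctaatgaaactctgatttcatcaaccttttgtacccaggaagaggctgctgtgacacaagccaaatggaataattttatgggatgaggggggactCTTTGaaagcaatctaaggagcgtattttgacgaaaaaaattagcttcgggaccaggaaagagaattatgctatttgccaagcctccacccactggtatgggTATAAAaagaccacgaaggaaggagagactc
Krt36: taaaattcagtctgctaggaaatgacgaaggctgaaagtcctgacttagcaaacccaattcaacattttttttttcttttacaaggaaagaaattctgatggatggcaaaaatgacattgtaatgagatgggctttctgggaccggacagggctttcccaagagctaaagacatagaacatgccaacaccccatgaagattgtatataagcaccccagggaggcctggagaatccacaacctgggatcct

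CTTTG occurred in 3 of the 4 sequences (Krt31, Krt33b and Krt34), against 48.6% of 32851 promoter windows of the same length. TATAAA occurred in the same 3, against 12.4% of windows, with its first base 29, 47 and 31 bases before the start in Krt31, Krt33b and Krt34. In each of these 3, the CTTTG farthest from the start, 244, 247 and 240 bases before it, went on as CTTTGAA, which 4.46% of windows held on either strand. That longer string was picked after the sequences were seen. TTTAT, a core of Hoxc13 sites that overlaps the reverse of TATAAA, was in the same 3 (37.3% of windows), and ACGC, the core of Foxn1 sites, was in Krt31 and Krt34 (49.8% of windows). None of these 4 strings was in the Krt36 window, which is a statement on these letters in this stretch alone.

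The arrays differed in ways that the genotypes do not explain. Probe sets for 18S ribosomal RNA scored 2.09 on L60 1, 0.339 on L84 1 and 1.13 on LC 1, and -0.642 to -0.528 on the other 6 arrays. The SD over probe sets was 1.31 on LA 2 and 1.2 on L84 1, and 0.764 to 0.907 on the other 7. Over all genes the scores of replicates correlated at -0.0228 for L60, -0.296 for L84, 0.229 for LA and 0.103 to 0.604 for LC. Each gene's level is removed from scores, so these values do not show how well replicates agree in expression level. For the 8 hair keratins, genotype accounted for 98.0% (Krt81) to 99.8% (Krt34) of the variance of each over the arrays, with a median over all genes of 49.0%, and no member had tied scores, which 44.3% of probe sets had. The members were chosen with earlier results of these data known, so these shares are a description.

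**Figure D1:**
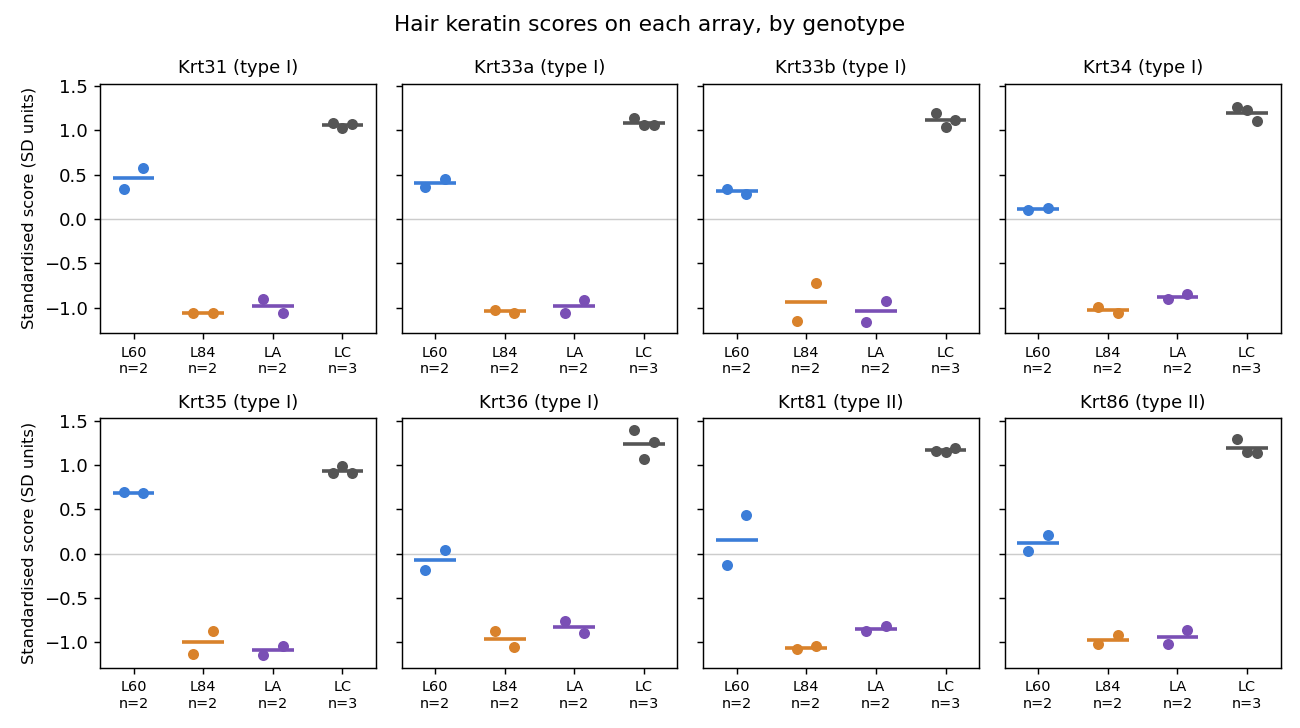
Standardised score (SD units, vertical axis) of each hair keratin gene on each array (points), with the genotype mean as a bar, for L60, L84 and LA (n = 2 each) and LC (n = 3). In every panel L84 and LA lie between -1.16 and -0.722, LC lies between 0.91 and 1.4, and L60 lies between them.

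In L84 skin all 8 hair keratins fell against LC, and no array of L84 reached any LC array (14.7% of all genes lay so). Krt34, a keratin of the upper cortex in human hair, scored -0.999 and -1.06 on the L84 arrays, against 1.26, 1.22 and 1.11 in LC. Krt33a scored -1.03 and -1.06 in L84, against 1.14, 1.06 and 1.05 in LC. These 2 type I genes had the narrowest spread within genotypes. Krt34 differed by -2.23 ± 0.0528 (SE) and Krt33a by -2.13 ± 0.0582 (limma without variance moderation, adjusted p = 0.000718 for each).

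Krt31, an early cortex keratin, scored -1.06 on both L84 arrays, against 1.08, 1.02 and 1.07 in LC. Krt35, the earliest of the set in human follicles, scored -1.13 and -0.868 in L84, against 0.911, 0.986 and 0.91 in LC. The 2 genes were low together, with differences of -2.12 ± 0.0866 for Krt31 and -1.93 ± 0.0855 for Krt35 (limma, adjusted p = 0.00388 for each). Krt36 scored -0.873 and -1.06 in L84, against 1.4, 1.07 and 1.26 in LC. Krt33b, the closest neighbour of Krt33a, scored -1.15 and -0.722 in L84, against 1.2, 1.04 and 1.11 in LC. Both fell, with differences of -2.21 ± 0.132 for Krt36 and -2.05 ± 0.149 for Krt33b (limma, adjusted p = 0.00904 and 0.0161), and the 2 L84 arrays were farther apart for Krt33b than for any other member.

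The type II partners moved with the type I genes. Krt81 scored -1.08 and -1.05 in L84, against 1.16, 1.15 and 1.2 in LC. Krt86 scored -1.02 and -0.92 in L84, against 1.29, 1.15 and 1.14 in LC. The differences were -2.23 ± 0.165 for Krt81 and -2.17 ± 0.0897 for Krt86 (limma, adjusted p = 0.0168 and 0.00388). In all, 8 of 8 members passed in the lower direction, where 0.403% of all genes did, and their median difference was -2.15, against 0.00308 over all genes. In bulk skin, fewer shaft-forming cells and less keratin RNA per cell cannot be told apart. Without LC 2 only Krt33a and Krt34 of the 8 passed, where 4 of 12393 genes passed in the lower direction. Without LC 3 5 members passed, where 16 of all genes did. With limma's moderated variance 0 members passed, and 0 of all genes did. In that fit 8 members had an unadjusted p under 0.05, where 741 of 12393 genes were lower at that level. Over the 8 genes L84 1 minus LC 1, the pair high in 18S, gave -2.35 to -2.04. The low-18S arrays (L84 2 against the average of LC 2 and LC 3) gave -2.23 to -1.8. L84 1 and LC 1 still differed in 18S (0.339 and 1.13), spike-in controls (-0.101 and 0.965) and Gapdh 3 prime (1.11 and -1.49). The pair is therefore not matched on these measures. Markers of other cell types also shifted, though 0 of the macrophage, fibroblast, endothelial, adipocyte, sebaceous and skeletal muscle genes listed passed in any line against LC. In L84 the 7 skeletal muscle markers were all higher than in LC, 5 of them without overlap (median difference 1.32). Of all 12393 genes, 1706 were higher without overlap in L84. The 4 adipocyte markers were all lower in L84, 2 of them without overlap (median -1.54), where 1826 of all genes were. In LA the 5 macrophage markers were all higher, 4 of them without overlap (median 1.52), where 3448 of all 12393 genes were higher without overlap. The part of these cells in the hair keratin differences was not tested.

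LA skin was also low for these genes. Krt34 scored -0.905 and -0.849 in LA, and Krt33a -1.06 and -0.914, and every LC score given above was higher. Krt33b scored -1.16 and -0.93 in LA and Krt35 scored -1.15 and -1.04. Krt31 scored -0.902 and -1.06 and Krt36 -0.764 and -0.898. Of the type II genes, Krt81 scored -0.87 and -0.821 and Krt86 -1.02 and -0.861. No LA array reached an LC array for any of the 8, where 21% of all genes lay so.

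The differences of LA from LC ran from -2.16 ± 0.149 for Krt33b to -2.01 ± 0.165 for Krt81, and 8 of 8 members fell (limma, adjusted p = 0.00102 to 0.0135), where 0.984% of all genes passed in the lower direction. The median difference was -2.07, against 0.247 over all genes. Krt34 had a difference of -2.07 ± 0.0528 and Krt86 of -2.13 ± 0.0897. Without LC 3 5 members passed, where 33 of 12393 genes passed in the lower direction. With moderated variance 0 members passed, and 0 of all genes did. In that fit 8 members had an unadjusted p under 0.05, where 1427 of 12393 genes were lower at that level. Without LA 2 the differences of the members ran from -2.28 to -1.96. Both LA arrays were low in 18S, and against LC 2 and LC 3 alone the differences ran from -2.12 for Krt33b to -2.0 for Krt36.

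L84 and LA were not told apart by any of the 8 genes. In LA against L84, 0 members passed limma's test, and 1, Krt34, had an unadjusted p under 0.05 (difference 0.154 ± 0.0578, adjusted p = 0.458, 95% interval 0.00501 to 0.302). The share of all genes called was 0.00807% in each direction, and 871 of 12393 genes were higher in LA with an unadjusted p under 0.05. The widest interval of a difference was that of Krt81, 0.217 with -0.248 to 0.682, so differences of that size are not excluded by these arrays. The arrays of the lines did not overlap for Krt34 and Krt81, both higher in LA, where 20% of all genes did not overlap in that direction, and for 0 members lower in LA, where 13.6% did not.

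In L60 skin the mean of each of the 8 genes lay between that of LC and those of L84 and LA. Krt35 scored 0.694 and 0.682 in L60, against 0.911, 0.986 and 0.91 in LC. Krt36, the gene next to it on chromosome 11, scored -0.18 and 0.0434 in L60, against 1.4, 1.07 and 1.26 in LC. The L60 arrays lay below the LC arrays for both genes.

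Among the cortex keratins of type I, Krt34 scored 0.102 and 0.125 in L60, against 1.26, 1.22 and 1.11 in LC. Krt31 scored 0.333 and 0.58 in L60, against 1.08, 1.02 and 1.07 in LC. The neighbours Krt33a and Krt33b had means between these, with 0.358 and 0.448 for Krt33a and 0.338 and 0.283 for Krt33b in L60, against LC scores of 1.05 to 1.14 and 1.04 to 1.2. All L60 arrays were below all LC arrays for these 4 genes, and of the 4 the L60 arrays were closest to each other for Krt34.

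The type II genes scored -0.13 and 0.437 for Krt81 and 0.0305 and 0.209 for Krt86 in L60, against LC scores of 1.15 to 1.2 and 1.14 to 1.29. L60 1 was the lower L60 array for both, and Krt81 had the widest gap between the L60 arrays of any member. The mean of the type II genes in L60 differed from LC by -1.04, and that of the type I genes by -0.788. The gap between the types was larger on L60 1 (means of -0.0495 and 0.274 for types II and I) than on L60 2 (0.323 and 0.36), and it was not tested.

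The differences of L60 from LC were -1.31 ± 0.132 for Krt36, -1.08 ± 0.0528 for Krt34, -1.07 ± 0.0897 for Krt86, -1.02 ± 0.165 for Krt81, -0.805 ± 0.149 for Krt33b, -0.682 ± 0.0582 for Krt33a, -0.601 ± 0.0866 for Krt31 and -0.248 ± 0.0855 for Krt35. None of the 8 passed limma's test, with adjusted p from 0.0632 for Krt34, the smallest of all genes, to 1 for Krt35, and 0% of all genes passed in the lower direction. All 8 had an unadjusted p under 0.05, where 281 of 12393 genes were lower at that level. With moderated variance 1 of the 8 did, where 213 of all genes were lower at that level. With array weights Krt33a, Krt34 and Krt86 passed, where 8 of 12393 genes passed in the lower direction. The arrays of L60 lay below those of LC without overlap for 8 of 8 members, where 10.8% of all genes did so, and the median difference was -0.91, against 0.0777 over all genes. Krt81 differed by -1.3 without L60 2 and by -0.732 without L60 1, each with a lone L60 array left. L60 1 minus LC 1, both high in 18S, ranged from -1.58 for Krt36 to -0.216 for Krt35, and on the low-18S arrays (L60 2 against the average of LC 2 and LC 3) from -1.12 for Krt36 to -0.266 for Krt35.

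**Figure D2:**
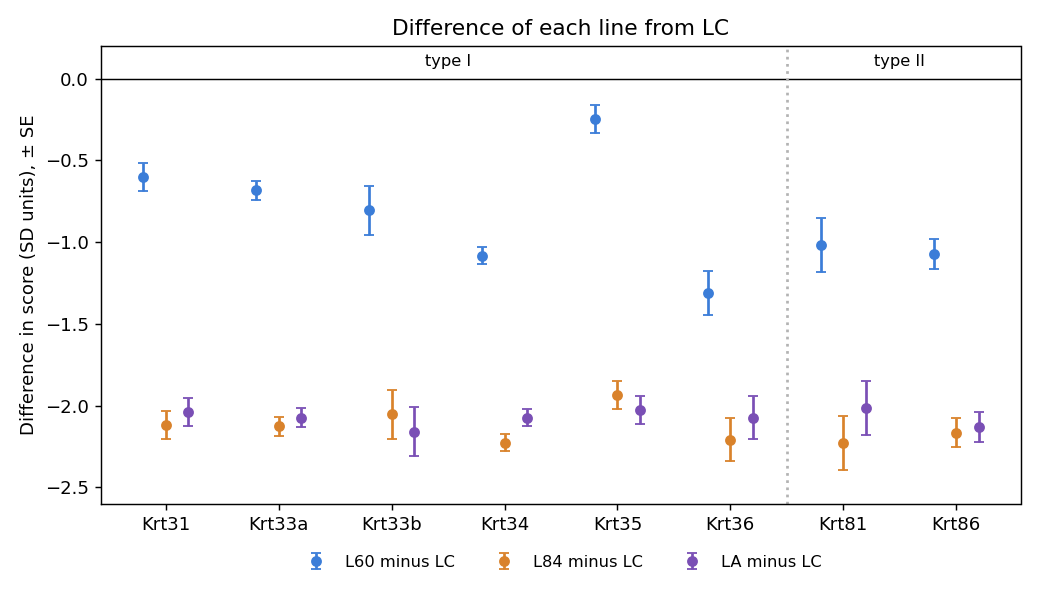
Difference in score (SD units, vertical axis) of L60, L84 and LA from LC for each hair keratin gene, with SE bars from the linear model over the 9 arrays. L84 and LA lie between -2.23 and -1.93 for every gene, and L60 runs from -1.31 for Krt36 to -0.248 for Krt35. Each gene is scaled to SD 1 over the arrays, so like values do not show like losses of RNA.

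Set against L60 directly, L84 was lower for all 8 genes without overlap, where 17.5% of all genes were, and LA likewise, where 23.7% were. In L84 against L60, Krt35 (-1.69, adjusted p = 0.018), Krt31 (-1.52, adjusted p = 0.0269), Krt33a (-1.44, adjusted p = 0.00966) and Krt34 (-1.14, adjusted p = 0.0151) fell in limma's test, 4 of 8 where 0.0968% of all genes passed in the lower direction. In LA against L60 the same 4 fell, among them Krt35 (-1.78 ± 0.0936, adjusted p = 0.0126), and Krt86 with them (-1.06 ± 0.0983, adjusted p = 0.033), 5 of 8 where 0.46% of all genes passed. Krt36 differed by -0.898 ± 0.145 in L84 against L60 and -0.763 ± 0.145 in LA against L60 and did not pass (adjusted p = 0.223 and 0.122). In both contrasts 0 passed with moderated variance, and 3 in L84 and 2 in LA had an unadjusted p under 0.05. Of all genes, 489 and 1154 were lower at that level. With only the arrays of the genotypes compared 0 passed in both, where 0 and 2 of all genes did. There 7 in each had an unadjusted p under 0.05, where 356 and 642 of all genes were lower at that level. Leaving out the 3 arrays high in 18S leaves a lone array in L60 and in L84. The differences then ran from -1.64 to -1.01 in L84 and from -1.77 to -0.875 in LA. Leaving out any single LC array left 0 to 2 members called in both contrasts. Of all genes, 2 to 7 then passed in the lower direction in L84 against L60, and 3 to 9 in LA against L60.

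Because scores of different genes have no common scale, the place of L60 was also put as a percentage of the way from the mean of L84 and LA (0%) to the mean of LC (100%), which does not change when a gene is shifted or rescaled. It would change if the values had been standardised on another scale than the one used, which is not stated. Krt35 stood at 87.8% on L60 1 and 87.2% on L60 2, above every other member. Krt31 followed at 65.1% and 77.0%, Krt33a at 65.4% and 69.7% and Krt33b at 63.1% and 60.5%. Krt31 and Krt33a were not separated by their arrays, and Krt33b lay below both. Krt81 stood at 38.8% and 65.5%, Krt86 at 45.9% and 54.2% and Krt34 at 49.1% and 50.2%, and these 3 overlapped. Krt36 was lowest in the mean, at 33.6% and 44.0%, below Krt34 and Krt86 but overlapping Krt81. The order did not follow the order on the chromosome, where Krt35 and Krt36, at the ends of the range, are neighbours. Differences between members in this percentage were not tested.

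The same measure over other genes of the follicle spread more widely. Of the inner root sheath keratins, which form the sleeve around the growing shaft, Krt25, Krt27 and Krt71 stood at 93.3%, 92.2% and 92.1% in L60 and Krt72 at 61.7%. Among proteins that work with the shaft and its sheath, Tchh, the trichohyalin that the sheath and medulla fill with, stood at 86.9%, S100a3, which binds calcium and is rich in the cuticle of the shaft, at 82.5% and Padi3, which citrullinates such proteins, at 82.1%. Padi1 stood at 35.5% (44.6% on L60 1 and 26.4% on L60 2) and the transglutaminase Tgm3 at 10.1% (2.4% and 17.8%). Of the transcription factors, Lef1, Msx2 and Hoxc13 stood at 87.0%, 84.2% and 83.9%, means near that of Krt35, and Foxn1 at 21.0%, below all 8 hair keratins. On L60 1 and L60 2 Lef1 stood at 72.8% and 101%, Msx2 at 79.0% and 89.5% and Hoxc13 at 80.5% and 87.3%. LC 1 stood at 66.1% for Lef1 and 83.3% for Msx2, so the L60 and LC arrays overlapped for both. They did not overlap for Hoxc13, where LC 1 was the lowest LC array at 88.2%, or for Krt35. Of the inner root sheath keratins, Krt27 and Krt71 overlapped LC, with LC 1 at 89.2% and 90.4%. The values of Foxn1 and Tgm3 moved with the line set at 0%: Foxn1 stood at 30.1% against L84 alone and 9.3% against LA alone, and Tgm3 at 17.2% and 1.61%.

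**Figure D3:**
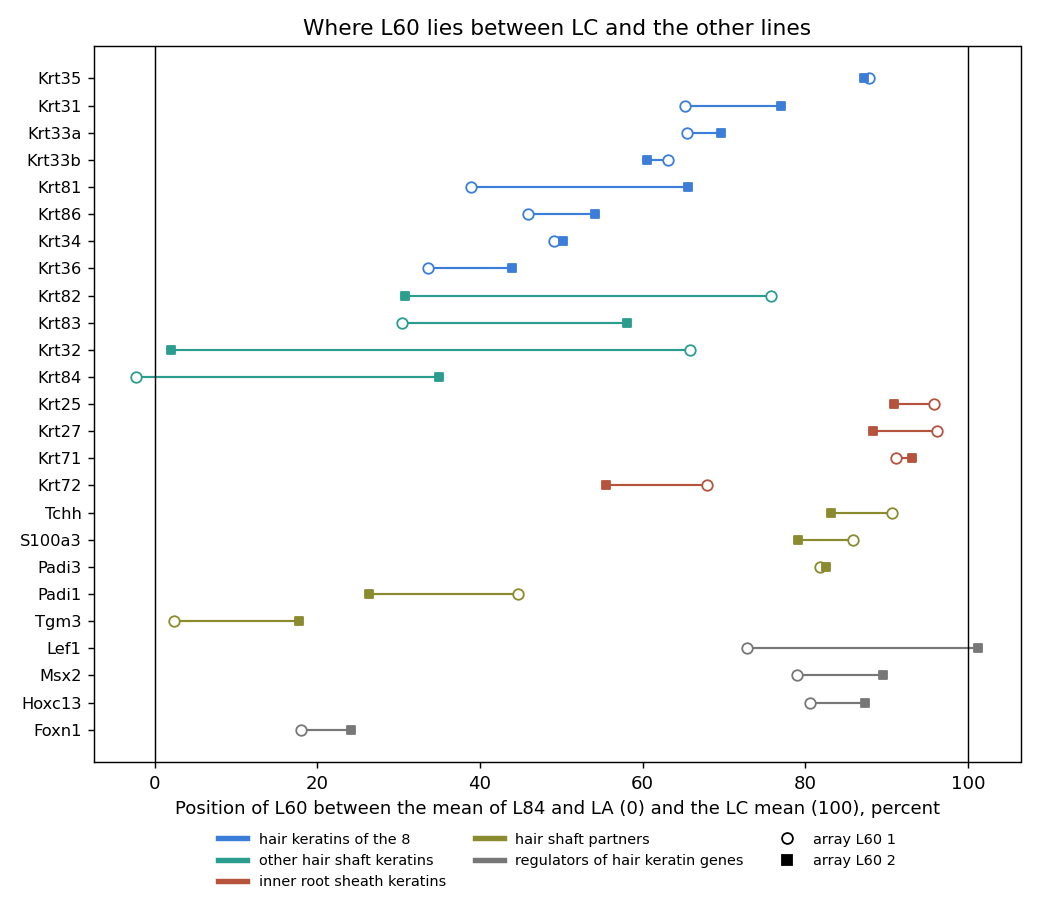
Position of each L60 array (open circle, L60 1; square, L60 2) on a horizontal axis in percent, where 0 is the mean of L84 and LA and 100 the LC mean, for the 8 hair keratins and other follicle genes (rows). Krt35 lies at 87.8 and 87.2, Krt36 at 33.6 and 44.0, and Krt25, Krt27 and Krt71 at 88.3 or above.

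Foxn1 scored -0.401 and -0.279 in L60, -0.946 and -1.09 in L84 and -0.673 and -0.331 in LA, against 1.26, 0.737 and 1.72 in LC. The 6 transgenic arrays were all below the LC arrays, but with this spread the differences of -1.58 ± 0.307, -2.26 ± 0.307 and -1.74 ± 0.307 did not pass limma's test (adjusted p = 0.615, 0.0856 and 0.0701). Hoxc13 scored 0.566 and 0.701 in L60, -0.743 and -1.12 in L84 and -1.21 and -1.05 in LA, against 0.718, 1.07 and 1.08 in LC. It fell in L84 (-1.88 ± 0.17, adjusted p = 0.0291) and LA (-2.09 ± 0.17, adjusted p = 0.0135), and differed by -0.32 ± 0.17 in L60 (adjusted p = 1). Msx2 fell in L84 (-1.85 ± 0.204, adjusted p = 0.0487) and LA (-2.09 ± 0.204, adjusted p = 0.0202) in the same test and differed by -0.311 ± 0.204 in L60. Lef1 differed by -1.86 and -1.87 in L84 and LA and by -0.242 in L60, and did not pass (adjusted p = 0.195, 0.0999 and 1). Of the 13 regulators measured of 14 listed, 0 passed in L60, 2 fell in L84 and 2 in LA, where 0%, 0.403% and 0.984% of all genes did.

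Other hair shaft keratins were measured through Krt32, Krt82, Krt83 and Krt84, 4 of 8 listed. The type II gene Krt83 scored -0.272 and 0.318 in L60, -1.05 and -0.761 in L84 and -1.05 and -0.803 in LA, against 1.21, 1.16 and 1.26 in LC. It fell in L84 (-2.12 ± 0.205, adjusted p = 0.0344) and LA (-2.14 ± 0.205, adjusted p = 0.0202), and differed by -1.19 in L60 (adjusted p = 0.591). The gene table gives Krt83 and Krt86 an older clone name in common, and whether their probes share signal was not tested. Krt32, the remaining type I gene of the cluster, scored 0.418 and -0.65 in L60, 0.497 and -0.797 in L84 and -0.897 and -1.54 in LA, against 1.5, 0.607 and 0.863 in LC. Its arrays were below LC in every line, as those of the other 3 were, but L84 1 and L84 2 were far apart. Its differences of -1.10, -1.14 and -2.21 in L60, L84 and LA did not pass. The cuticle keratin Krt82 and Krt84, known from tongue papillae as well as hair, differed by -2.03 and -2.04 in L84 and did not pass (adjusted p = 0.173 and 0.177).

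Hair keratins and inner root sheath keratins overlapped in the place of L60: Krt72, at 61.7%, was level with Krt33b, at 61.8%, and Krt35, at 87.5%, was above Krt72. The 4 measured inner root sheath keratins had a median difference of -0.152 in L60, with -0.795 for Krt72, against a median of -0.91 for the 8 hair keratins, and of -1.94 in L84 and -1.97 in LA, against -2.15 and -2.07. Of these 4, 0 passed in L60, 3 fell in L84 and 4 in LA, where 0%, 0.403% and 0.984% of all genes did. The 26 keratin-associated protein genes had medians of -1.47 in L60, -2.04 in L84 and -1.98 in LA, and 0, 7 and 8 of them fell, set against the same shares of all genes. In L84 and LA against L60, 0 of these 26 passed, which is near the 0.0968% and 0.46% of all genes that passed in the lower direction. Of the 8 hair keratins, 4 and 5 passed there. The difference between these groups of genes was not tested.

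**Figure D4:**
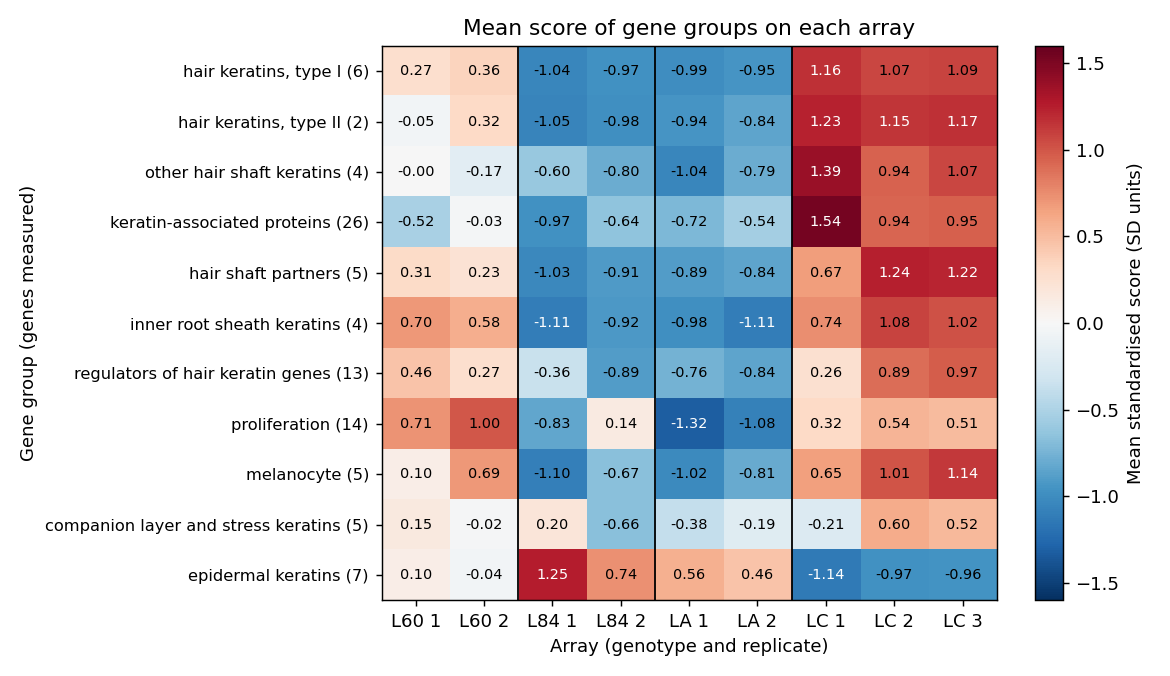
Mean standardised score (SD units, colour and printed value) of gene groups (rows, with the number of genes measured) on each array (columns). Hair keratins are near 1.1 in LC, near -1 in L84 and LA and between -0.0495 and 0.36 in L60, and epidermal keratins run the other way.

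Epidermal keratins, of the skin surface and the outer layers of the follicle, scored in the opposite direction. In L84, 3 of 7 rose, where 0.161% of all genes did, led by the basal keratins Krt15 (2.28 ± 0.179, adjusted p = 0.0193) and Krt5 (2.21 ± 0.244, adjusted p = 0.0487), and in LA 4 of 7 rose, where 0.815% did, led by Krt77 (2.35 ± 0.117, adjusted p = 0.00469). The basal keratin Krt14 overlapped LC in LA, with -0.347 and -0.679, against -1.61, -0.0624 and -0.254 in LC. In L60 6 of 7 were higher and 0 passed limma's test. The 14 proliferation genes do not mark follicles alone. They averaged 0.715 to 0.997 on the L60 arrays, -0.828 to 0.145 in L84 and -1.32 to -1.08 in LA, against 0.323 to 0.541 in LC. Thus L60 was above LC for proliferation while it was below LC for all 8 hair keratins; 0 of these 14 passed in L60 and L84 and 3 fell in LA (Mki67, Mcm2 and Mcm6), where 0%, 0.403% and 0.984% of all genes fell in L60, L84 and LA. The 5 melanocyte markers averaged 0.104 to 0.693 in L60, -1.1 to -0.668 in L84 and -1.02 to -0.808 in LA, against 0.652 to 1.14 in LC, with 0, 2 and 3 of 5 lower in limma's test, beside those same shares. The part of these cells in the hair keratin differences was not tested.

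The genes most like the hair keratins over the 9 arrays were ranked by Pearson correlation with the mean of the 8 scores. The first 10 of 12385 were Dlx2 (0.993), Psors1c2 (0.993), Krtap8-1 (0.992), Krtap13-1 (0.992), Prickle1 (0.988), Krtap4-16 (0.984), Gprc5d (0.981), Krt83 (0.98), Map3k6 (0.978) and Slc25a37 (0.976). Among themselves the 8 members correlated at 0.887 (Krt35 with Krt36) to 0.997 (Krt34 with Krt86). With 4 genotypes on 9 arrays, such values mostly repeat the order of the genotype means, and 47 genes exceeded 0.95, among them Hoxc13 (0.958) and Msx2 (0.954). Dlx2, a homeobox factor, scored 0.0884 and 0.453 in L60, -1.04 and -0.908 in L84 and -1.19 and -0.793 in LA, against 1.17, 1.22 and 0.998 in LC. The G protein-coupled receptor gene Gprc5d scored -0.00657 on both L60 arrays, a tie that narrows its spread.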

How the data were processed

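Total RNA of whole skin (30 mg, 30 days of age) was labelled with biotin and hybridised to Affymetrix arrays, per the labels. Per the submitters' processing notes RMA was used; its version is not given in the sources used here. The deposited values are a score, standardised by the authors so that each probe set has mean 0 and SD 1 (no mean farther from 0 than 1.86e-07); the scale before standardisation is unknown. Array medians over genes were -0.14 to 0.0713.

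Of 22690 probe sets, 20380 named 1 gene; scores were averaged to 12393 genes. Group means were fitted over all 9 arrays with limma 3.58.1 (R 4.3.3) without variance moderation (5 residual degrees of freedom), since moderation assumes a common scale. Each contrast was adjusted over all genes by Benjamini-Hochberg, with 0.05 as the threshold. The fit was tested on simulated data with known shifts. All 8 members were named, with 4 regulators, up to 3 called genes per list and contrast, and the 10 most alike genes without predicted genes. Krt32, Krt82 and Krt84, and the scores of other genes printed, were named after their values were seen. The members, lists and alternatives were chosen with earlier results of these data known. The number of arrays limits the precision. Promoter sequences and gene order are from RefSeq, GRCm38.p6.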

Additional observations from a re-analysis of the deposited data

Results flagged for a closer look

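In 9 cases the difference of a hair keratin from LC differed between lines, by limma's test of line against line. L84 minus L60 was -1.69 for Krt35, -1.52 for Krt31, -1.44 for Krt33a and -1.14 for Krt34. LA minus L60 was -1.78 for Krt35, -1.44 for Krt31, -1.39 for Krt33a, -0.991 for Krt34 and -1.06 for Krt86. In each case both arrays of L84 or LA were below both arrays of L60. Both sets share the L60 arrays. Genotypes of 2 and 3 arrays are too small for a search for single outlying arrays.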

How the results depend on the processing

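Every hair keratin kept its sign in the 5 contrasts other than LA against L84 under all 17 alternatives, from -2.3 to -1.8 in L84 against LC, -2.29 to -1.96 in LA against LC and -1.42 to -0.222 in L60 against LC. The number called moved, and where no value below shows why, the cause was not tested. With single LC arrays left out it was 0 in L60 against LC, 2 to 6 in L84 against LC and 5 to 7 in LA against LC. It was 0 to 2 in L84 against L60 and 0 to 2 in LA against L60. Of all genes, 0, 4 to 39, 30 to 66, 2 to 7 and 3 to 9 passed in the lower direction. Leaving out an array of a line leaves that line a lone array, so those calls are not given. With limma's moderated variance 0 members were called in all contrasts (1, 8, 8, 3 and 2 with an unadjusted p under 0.05 in the order just given). Of all 12393 genes, 213, 741, 1427, 489 and 1154 were lower with an unadjusted p under 0.05. In that setting 0 of all genes were called in any contrast. Without the 3 arrays high in 18S, which leaves a lone array in L60 and in L84, only the differences are given. Against LC they ran from -1.12 to -0.266 in L60, -2.23 to -1.8 in L84 and -2.12 to -2.0 in LA. Against L60 they ran from -1.64 to -1.01 in L84 and -1.77 to -0.875 in LA. Without the 2 arrays of widest scores, which leaves a lone array in L84 and in LA, only the differences are given. Against LC they ran from -2.3 to -1.8 in L84 and -2.28 to -1.96 in LA. Against L60 they ran from -1.56 to -0.99 in L84 and -1.83 to -0.696 in LA. With only the arrays of the 2 genotypes compared 4 were called in L84 against LC and 0 in L84 and in LA against L60 (7 unadjusted in each). Of all genes, 15, 0 and 2 passed in the lower direction in these 3 contrasts. In L84 and in LA against L60, 356 and 642 of all genes were lower with an unadjusted p under 0.05. Array weights gave 3 in L60 against LC and 2 in L84 against L60, where 8 and 4 of all genes passed in the lower direction. Array medians set to 0 gave 2 in L84 against L60, where 5 of all genes did. With the replicate number as a block 1 was called in L84 against LC (Krt34) and 0 in LA against LC, L84 against L60 and LA against L60. Of all genes, 1, 0, 0 and 0 passed in the lower direction in these contrasts. In each, 8 members had an unadjusted p under 0.05, where 509, 792, 487 and 831 of all genes were lower at that level. Same-numbered arrays deviated together at -0.0833 to 0.345, so the numbers are not shown to pair the arrays. Every probe set on its own left the numbers of members called as they were with scores averaged to genes.

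The type I mean moved to -0.859 in L60 against LC, -2.21 in LA against LC, -1.24 in L84 against L60 and -1.35 in LA against L60 with array medians set to 0, and the type II mean to -2.21 in LA against LC. Without the 3 arrays high in 18S the type I mean was -0.716 in L60 and -2.05 in L84 against LC, and the type II mean -0.834 in L60 against LC, -1.31 in L84 against L60 and -1.22 in LA against L60. With single arrays left out the type I mean ranged from -0.831 to -0.745 in L60 against LC, and the type II mean from -1.23 to -0.858 there, -1.34 to -0.968 in L84 against L60 and -1.22 to -0.842 in LA against L60, with the ends set by L60 1 and L60 2. The median of all genes was 0.247 higher in LA than in LC and 0.164 higher than in L60. Scores hold no signal over background, so a filter on dim genes could not be set.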
